A study of Mus musculus with 13 samples.

Results

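The genes described here are the ligands and receptors of the colony-stimulating factors, the growth factors of the myeloid lineage, as measured in mouse microglia, the macrophages that live in brain tissue. They were taken from the deposited expression table by gene symbol: the ligand genes Csf1 and Il34 and the receptor genes Csf1r, Csf2ra, Csf2rb, Csf2rb2 and Csf3r. All 7 were found among the 19737 genes of the table, and 6 of them passed the filter for testing, a mean of at least 1 FPKM (fragments per kilobase of exon, scaled to the fragments of the library) over the 13 libraries. Il34 was below it.

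The study sequenced ribosomal RNA-depleted total RNA from microglia of 4 groups of mice. Wild type mice (n = 3 libraries) and 5xFAD mice (n = 2) had each been given AAV PHP.eB-EGFP, an adeno-associated virus with a capsid that reaches the brain from the blood and a gene for a green fluorescent protein. Further 5xFAD mice (n = 4) had been given AAV PHP.eB with circPOLR2A, an RNA closed into a circle. Their treatment labels are not identical to each other, whereas the series design names 1 construct, and the libraries were grouped by title. The last group is 5xFAD mice with PKR KO (n = 4), labelled as knockouts of the kinase that double-stranded RNA activates, and no vector is named for them. Effects of the knockout and of a possible absence of vector therefore cannot be told apart. Nor can effects of anything else that set the libraries of this group apart, such as their greater sequencing depth. 5xFAD mice carry mutant human transgenes driven by the Thy1 promoter, which is active in neurons, and deposit amyloid. The age and sex of the mice, the way the microglia were isolated and the part of the PKR gene that was deleted are not given in the sources used here. Nor do the labels say that replicates are separate animals, so p-values measure the spread between these libraries, which may be technical.

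Microglia depend on signalling through the CSF1 receptor, a tyrosine kinase at the cell surface encoded by Csf1r, for their survival and renewal. Its ligands are CSF1, which is made by glia and other cells and is released by shedding or secretion, and IL-34, which in the brain comes mainly from neurons. The receptors for the granulocyte-macrophage factor GM-CSF and for G-CSF have no kinase of their own and signal through JAK kinases and STAT factors. The GM-CSF receptor pairs an alpha chain (Csf2ra) that binds the ligand with the common beta chain (Csf2rb), shared with the receptors for interleukins 3 and 5. Mice have a second beta chain gene beside it, Csf2rb2, whose product serves interleukin 3. Csf3r encodes the G-CSF receptor, best known from neutrophils.

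Depth, recovered from the smallest steps of the FPKM values, ranged from 45.2 to 70.0 M (mega) fragments a library, and was highest in the PKR KO group, at 57.7 to 70.0 M. The microglial label was borne out by its markers: the 11 listed genes, Tmem119, P2ry12 and Cx3cr1 among them, were all present and summed to 2440 to 4196 FPKM a library. Wild type replicate 3 stood apart from the others of its group. It had the lowest microglial sum (2440 FPKM, against 3810 and 3893 in the other wild type libraries) and the highest oligodendrocyte marker sum of the 13 (1580 FPKM). The changes of the members and the counts of the lists against wild type are therefore also given without it. The PKR gene itself, Eif2ak2, was at 5.18, 5.23 and 4.14 FPKM in wild type, 6.49 and 6.59 in 5xFAD EGFP, 7.37, 7.48, 7.73 and 8.11 with circRNA, and 3.35, 4.61, 3.31 and 4.16 in PKR KO. The PKR KO libraries were below every other 5xFAD library but kept reads of the gene and overlapped wild type (log2 change of -0.64 against 5xFAD EGFP, limma adjusted p = 0.0644). Eif2ak2 passed as lower in PKR KO than in wild type (-0.27, limma adjusted p = 0.0486) and as higher with circRNA than in PKR KO (0.845, limma adjusted p = 0.00147). It also passed as higher with circRNA than in wild type (0.57, limma adjusted p = 0.0012).

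In FPKM, which is per length and allows genes to be compared, Csf1r was the most abundant of the 7 in every group, at a mean of 627 FPKM in wild type, rank 22 of the 19737 genes. Csf3r followed at 90.1 FPKM in wild type. Csf2ra (13.6), Csf2rb (10.4) and Csf2rb2 (8.29) came next, then Csf1 (5.51) and Il34 (1.77). The wild type ranges of Csf2ra and Csf2rb overlapped, as did those of Csf2rb and Csf2rb2 and of Csf2rb2 and Csf1. Within each wild type library, however, Csf2ra was above Csf2rb and Csf2rb above Csf2rb2, and the order of Csf2rb2 and Csf1 alone changed, in replicate 3. In the 3 groups of 5xFAD mice the order was different and no neighbours overlapped: Csf1 came after Csf1r and Csf3r and ahead of Csf2ra. In 5xFAD EGFP the means ran from 531 FPKM for Csf1r through 118 for Csf3r, 69.5 for Csf1, 34.3 for Csf2ra, 10.5 for Csf2rb and 7.15 for Csf2rb2 to 0.652 for Il34.

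Csf1 and Csf2ra were the members that differed from wild type in all 3 groups of 5xFAD mice, and the bases in front of their start sites are shown for that reason. Both are from RefSeq (GRCm38.p6), cover the 250 bases upstream of the annotated start and read 5′ to 3′ on the gene's strand. Promoters were matched for 4 of the 7 members (Csf1, Csf2ra, Csf2rb2 and Csf3r). Each was searched on both strands for GAGGAAGT, a site of the myeloid factor PU.1, and for the 10-base kappaB site of the immunoglobulin kappa enhancer, bound by NF-kappaB. Capitals mark the match in Csf1, 154 to 145 bases upstream of the start, where the kappaB site reads on the opposite strand.
Csf1, chr3:107760470-107760719, minus strand: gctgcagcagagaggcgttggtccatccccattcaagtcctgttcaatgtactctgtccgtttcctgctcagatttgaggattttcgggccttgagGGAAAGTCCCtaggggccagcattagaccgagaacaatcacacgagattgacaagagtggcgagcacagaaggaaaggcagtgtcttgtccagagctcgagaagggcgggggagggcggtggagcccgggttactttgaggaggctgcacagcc
Csf2ra, chr19:61228419-61228668, minus strand: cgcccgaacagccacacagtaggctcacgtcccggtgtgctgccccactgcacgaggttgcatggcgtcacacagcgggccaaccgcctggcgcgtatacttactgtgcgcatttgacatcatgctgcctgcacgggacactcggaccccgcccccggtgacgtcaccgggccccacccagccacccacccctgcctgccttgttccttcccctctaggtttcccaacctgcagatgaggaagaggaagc
Of 32851 promoter windows of this length, from 27025 genes, 46 (0.14%) held the NF-kappaB letters and 802 (2.44%) the PU.1 letters. The windows of Csf2ra, Csf2rb2 and Csf3r held neither. These are matches of letters and were not tested as binding sites.

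Csf1, the ligand gene, was higher in all 10 libraries from 5xFAD mice than in any wild type library. It lies on chromosome 3 (107741048 to 107760469 on the minus strand, build GRCm38, GENCODE M21) and its exons cover 5281 bases. It was at 4.99, 5.28 and 6.27 FPKM in wild type and at 66.5 and 72.5 FPKM in 5xFAD EGFP. The circRNA libraries were at 69.4, 66.6, 71.2 and 59.4 FPKM, and in PKR KO at 95.3, 103.0, 73.4 and 102.9 FPKM. The circRNA libraries overlapped the 5xFAD EGFP libraries, and all 4 PKR KO libraries lay above both groups. These levels rest on 1244 to 38074 fragments a library, a counting error of at most 2.84%, which is well below the spread between replicates. For Csf1 and the members below, the share of all genes separated from wild type is not given, so such separations are description only.

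**Figure D1:**
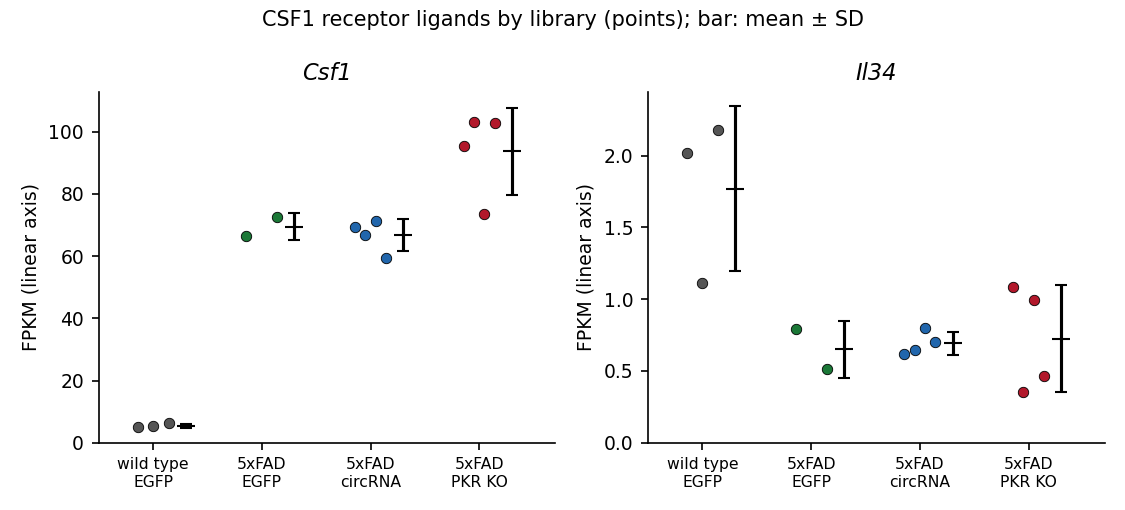
FPKM (linear axis) of Csf1 and Il34, the genes of the CSF1 receptor ligands, in each library (points) with the mean ± SD of each of the 4 groups beside them. Csf1 goes from 4.99 to 6.27 FPKM in wild type to 59.4 FPKM and above in the libraries from 5xFAD mice, while Il34 is below 2.2 FPKM in every library.

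In 5xFAD EGFP against wild type, Csf1 rose from a mean of 5.51 ± 0.674 FPKM in wild type (SD, n = 3) to one of 69.5 ± 4.21 FPKM (SD, n = 2), a ratio of 12.6. Its log2 change, on the log2(FPKM + 1) scale used for all changes here, was 3.44 (SE 0.15, 95% interval 3.12 to 3.76). With limma, adjusted over all 10817 genes tested, p was 4.00e-08. Only 8 of the tested genes had a larger log2 change. Of the 6 members tested, 2 rose in this comparison (Csf1 and Csf2ra) and none fell. Over all genes tested 14.0% passed the threshold of an adjusted p of 0.05, 7.65% raised and 6.35% lowered. With 2 libraries against 3 an exact permutation test cannot go below p = 0.1, and Csf1 reached that value (two-sided). Without wild type replicate 3 the log2 change was 3.52.

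Against the same wild type libraries Csf1 also rose with circRNA, to 66.7 ± 5.17 FPKM (SD, n = 4; log2 change 3.38, SE 0.12, limma adjusted p = 4.76e-09), and in PKR KO, to 93.6 ± 14.0 FPKM (SD, n = 4; log2 change 3.85, SE 0.12, limma adjusted p = 9.93e-10). The 3 comparisons share the wild type libraries and are not independent of each other. With circRNA 2 of the 6 members passed, both raised, against 25.8% of all genes tested (17.8% raised and 8.05% lowered). In PKR KO 3 of the 6 passed, all raised, against 37.0% of all genes (17.5% raised and 19.4% lowered). The exact two-sided permutation p of Csf1 was 0.0286 in both, the smallest these group sizes give. The changes were 3.46 and 3.94 without wild type replicate 3.

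Among the 5xFAD groups, circRNA and EGFP did not differ in Csf1 beyond the spread between libraries: the log2 change was -0.06 (95% interval -0.37 to 0.25, limma adjusted p = 0.880). No gene of the 10817 passed in that comparison, a background of 0%, and 523 had an unadjusted p below 0.05. All 8 alternative settings gave 0 genes there as well. PKR KO was 1.35 times 5xFAD EGFP in Csf1 with no overlap of libraries, and the difference did not pass after adjustment (log2 change 0.41, 95% interval 0.11 to 0.72, limma adjusted p = 0.252).

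The direct comparison of circRNA with PKR KO passed for Csf1 alone, 1 of the 6 members, against 6.19% of all genes tested (4.28% raised and 1.91% lowered with circRNA). Csf1 was lower with circRNA than in PKR KO by a log2 change of -0.47 (SE 0.12, 95% interval -0.73 to -0.22, limma adjusted p = 0.0350). PKR KO libraries were on average 1.40 times those with circRNA. The exact two-sided permutation p was 0.0286, the smallest possible for 4 against 4. This call is narrow. Leaving out any 1 of the 8 libraries but PKR KO replicate 3 ended it, with log2 changes of -0.51 to -0.42 and limma adjusted p-values of 0.0581 to 0.107. Without PKR KO replicate 3, the lowest of its group, the log2 change was -0.59 (limma adjusted p = 0.0177). The call also ended with the replicate number as a block (limma adjusted p = 0.0685) and with no filter on low values (limma adjusted p = 0.0519), at an unmoved log2 change. The share of all calls that were raised with circRNA depended on the scaling, at 69.1% as deposited and 17.5% after median-ratio scaling, and Csf1 was lower with circRNA under every scaling tried (log2 changes of -0.43 to -0.60).

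Il34, the gene of the other CSF1 receptor ligand, was the least abundant member in every library. It lies on chromosome 8 (110741829 to 110805924 on the minus strand, exons of 1959 bases). It was at 2.02, 1.11 and 2.17 FPKM in wild type and at 0.792 and 0.511 FPKM in 5xFAD EGFP. The 4 circRNA libraries had 0.615, 0.647, 0.802 and 0.705 FPKM, and in PKR KO at 1.09, 0.350, 0.997 and 0.462 FPKM. Every library from 5xFAD mice was below every wild type library, although PKR KO replicate 1, at 1.09 FPKM, came close to wild type replicate 2, at 1.11 FPKM. The values rest on 48 to 215 fragments a library, a counting error of 6.82% to 14.4%.

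Since Il34 was under the filter, its changes come from the fit without a filter, over 18291 genes. Il34 fell with circRNA (log2 change -0.69, SE 0.18, limma adjusted p = 0.0201) and in PKR KO (log2 change -0.69, SE 0.18, limma adjusted p = 0.0138), where 8.26% and 19.5% of all genes in that fit were lowered. In 5xFAD EGFP it was at a log2 change of -0.73 (95% interval -1.19 to -0.26), which did not pass (limma adjusted p = 0.0513, with 5.63% of genes lowered). That change passed in 4 of the 5 other fits without a filter: -0.65 after quantile normalization (limma adjusted p = 0.0362), -0.69 after median-ratio scaling (0.0465), -0.85 with the same column sum (0.0145) and -0.65 with the replicate block (0.0371), but not with a pseudocount of 0.1 (0.0740). It also passed without wild type replicate 2 (-0.91, limma adjusted p = 0.0147), and was -0.62 (limma adjusted p = 0.103) without replicate 3. The exact two-sided permutation p-values were 0.0286, 0.0571 and 0.2 in that order. Without wild type replicate 3 the circRNA and PKR KO changes were -0.58 (limma adjusted p = 0.0742) and -0.58 (0.0533). Leaving out wild type replicate 1 gave -0.62 (0.0659) and -0.61 (0.0526). Without circRNA replicate 1 the circRNA change was -0.67 (0.0503). Since 1 FPKM was added before the log, these changes understate the ratio of the means, which was 0.368 for 5xFAD EGFP over wild type. Among the 5xFAD groups Il34 differed by log2 changes between -0.00 and 0.04, with limma adjusted p-values of 0.978 to 1.0.

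In bulk RNA, fewer cells of a type and less RNA per cell cannot be told apart, and markers of some other cell types were also mostly lower in the libraries from 5xFAD mice, while those of others were not. The border macrophage markers (6 of 6 listed, summed) were at 41.9 to 66.3 FPKM in wild type and at 15.5 to 28.6 FPKM over the 5xFAD groups. The endothelial sum (6 of 6) was at 50.4 to 116 FPKM in wild type, and at 22.6 to 33.0, 30.1 to 64.1 and 32.5 to 47.7 FPKM in 5xFAD EGFP, circRNA and PKR KO. The mural sum (6 of 6) was at 36.1 to 85.0 FPKM in wild type and at 17.4 to 41.5 FPKM over the 5xFAD groups. Within that list Cspg4 went the other way, at 1.27 to 3.44 FPKM in wild type and 2.98 to 5.40 FPKM over the 5xFAD groups. The dendritic cell sum (6 of 6) was at 6.58 to 10.7 FPKM in wild type and at 2.05 to 4.27 FPKM over the 5xFAD groups. Cd209a was its largest part, at 4.07 to 8.31 FPKM in wild type and 0.927 to 2.80 FPKM over the 5xFAD groups. Flt3, Zbtb46 and Itgae were also lower, while Clec9a and Xcr1, at most 0.149 FPKM in any library, overlapped wild type or were above it. The neuronal, astrocyte and oligodendrocyte sums did not share this direction throughout, although the oligodendrocyte sum was mostly lower in PKR KO. The wild type maxima of these sums were all in replicate 3. Neuronal markers (8 of 8) were at 9.54, 7.88 and 26.8 FPKM in wild type, 22.2 and 19.0 FPKM in 5xFAD EGFP, 5.82 to 18.9 FPKM with circRNA and 7.98 to 13.8 FPKM in PKR KO. Astrocyte markers (6 of 6) were at 101, 79.3 and 289 FPKM in wild type and at 121 to 231 FPKM over the 5xFAD groups. Within that list Gfap was higher, at 11.6 to 29.9 FPKM in wild type and at 49.6 to 116 FPKM in the others, while the other 5 nowhere exceeded their wild type maximum. Aldh1l1 was at 2.91 to 7.501 FPKM in wild type and at 1.97 to 4.07 FPKM in the others, and Gja1 at 3.43 to 13.7 and 1.16 to 6.003 FPKM. Oligodendrocyte markers (6 of 6) were at 392, 352 and 1580 FPKM in wild type, 636 and 680 FPKM in 5xFAD EGFP, 306 to 787 FPKM with circRNA and 225 to 375 FPKM in PKR KO. None of these lists had a marker at 0 throughout a group. The part of these cells in the Il34 values was not tested.

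The proportion of the ligand messages to each other is given as a description, with no test. The ratio of Csf1 to Il34, both per length, was 3.36 ± 1.21 (SD, n = 3) in wild type and 113 ± 40.8 (SD, n = 2) in 5xFAD EGFP. It was 97.2 ± 13.0 with circRNA (SD, n = 4) and ranged from 73.6 to 294 in PKR KO. The lowest ratio in a library from a 5xFAD mouse was thus far above the highest in wild type, 4.74, with most of the spread among 5xFAD libraries coming from Il34.

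Csf1r, the receptor of both ligands, did not follow Csf1. It lies on chromosome 18 (61100598 to 61132149 on the plus strand). It was at 719, 713 and 448 FPKM in wild type and at 562 and 500 FPKM in 5xFAD EGFP. In the circRNA group it was at 542, 660, 747 and 505 FPKM, and in PKR KO at 615, 603, 603 and 592 FPKM. The wild type range covered the libraries of the other groups except circRNA replicate 3. The log2 change of 5xFAD EGFP against wild type was -0.21 (95% interval -0.70 to 0.28, limma adjusted p = 0.612). The change was -0.02 both with circRNA (95% interval -0.43 to 0.40, limma adjusted p = 0.963) and in PKR KO (95% interval -0.44 to 0.39, limma adjusted p = 0.932).

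The 448 FPKM in wild type replicate 3 went with the low microglial marker sum of that library. Without it the log2 changes of Csf1r were -0.43 in 5xFAD EGFP (limma adjusted p = 0.120), -0.24 with circRNA (0.304) and -0.25 in PKR KO (0.247). After quantile normalization Csf1r passed as lower than wild type with circRNA (-0.49, limma adjusted p = 0.0120) and in PKR KO (-0.38, limma adjusted p = 0.0330). Its transcript was 117 ± 39.7 times that of Csf1 per length in wild type (SD, n = 3). In 5xFAD EGFP this ratio was 7.67 ± 1.09 (SD, n = 2), with circRNA 9.17 ± 1.24 and in PKR KO 6.57 ± 1.14 (SD, n = 4 each). Of the 50-base stretches in Csf1r exons 14.3% also lie in exons of Hmgxb3, which overlaps it, so some reads could have been given to either.

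**Figure D2:**
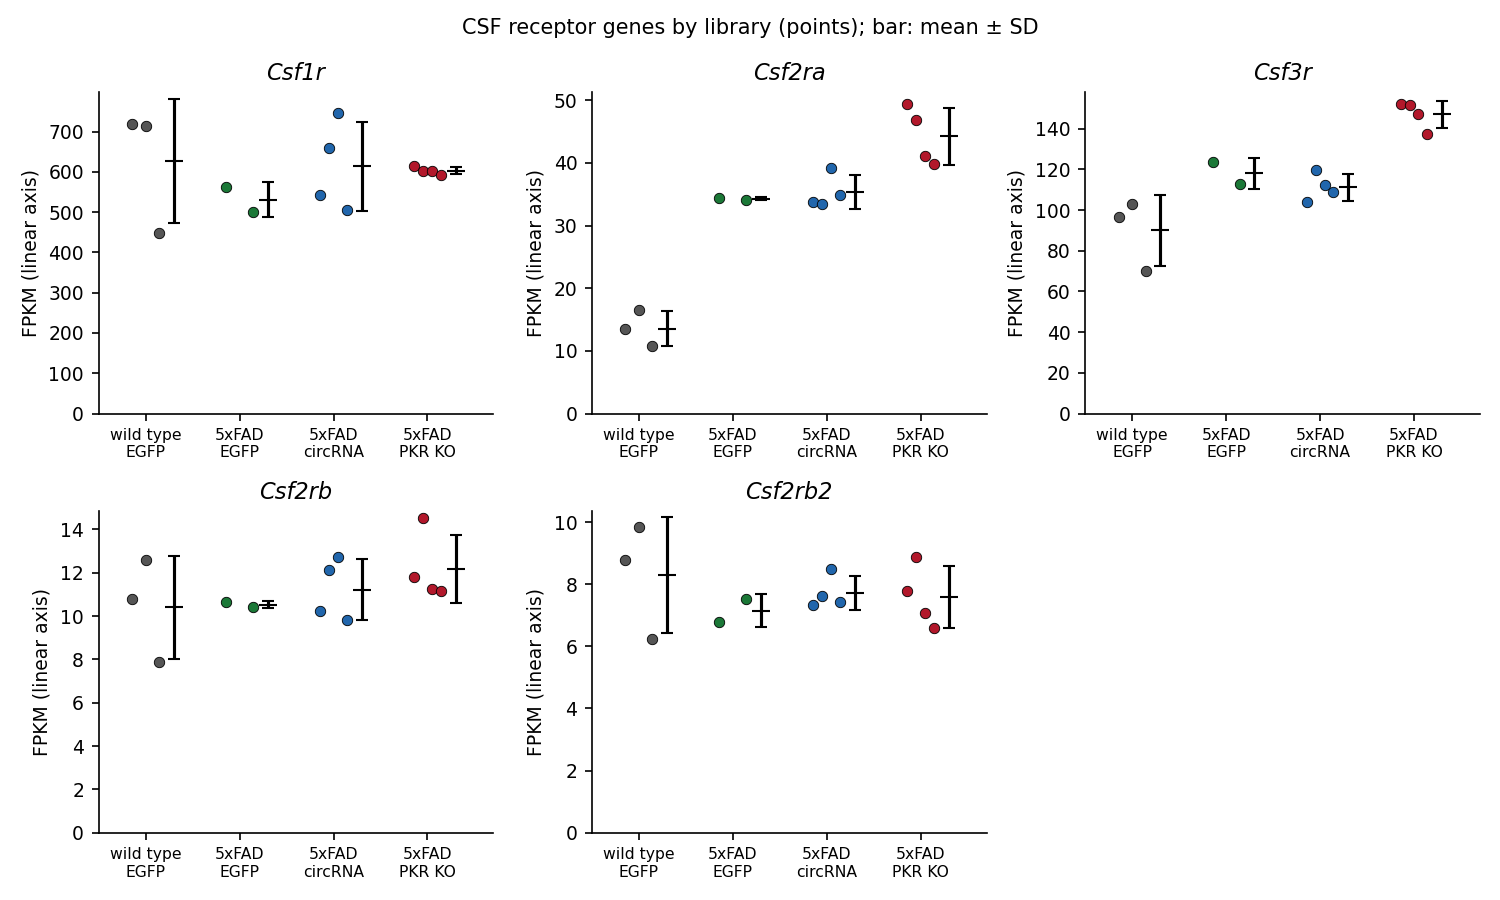
FPKM (linear axes that start at 0) of the 5 receptor genes in each library (points), with the mean ± SD of each group beside them. Csf2ra steps up from 10.8 to 16.5 FPKM in wild type to 33.4 FPKM and above in the other groups, Csf3r is highest in PKR KO, and Csf1r, Csf2rb and Csf2rb2 overlap between wild type and the others.

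Csf2ra, the ligand-binding chain of the GM-CSF receptor, rose in all 3 groups of 5xFAD mice. It lies on chromosome 19 (61223957 to 61228429 on the minus strand, exons of 2871 bases). It was at 13.4, 16.5 and 10.8 FPKM in wild type and at 34.5 and 34.1 FPKM in 5xFAD EGFP. The circRNA libraries held 33.7, 33.4, 39.2 and 34.9 FPKM, and in PKR KO at 49.4, 46.8, 41.1 and 39.8 FPKM. All libraries from 5xFAD mice were above those from wild type. The circRNA libraries lay around the 5xFAD EGFP libraries, and those of PKR KO lay above both.

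Against wild type the log2 change of Csf2ra was 1.30 in 5xFAD EGFP (SE 0.15, 2.53 times the wild type mean, limma adjusted p = 0.000141). With circRNA it was 1.33 (SE 0.13, limma adjusted p = 1.17e-05) and in PKR KO 1.65 (SE 0.13, 3.26 times, limma adjusted p = 1.51e-06). Without wild type replicate 3 these were 1.15, 1.19 and 1.504. The circRNA and EGFP groups differed by 0.04 (95% interval -0.27 to 0.35, limma adjusted p = 0.928). PKR KO was above 5xFAD EGFP by 0.35 (95% interval 0.04 to 0.66, limma adjusted p = 0.325) and circRNA was below PKR KO by a log2 change of -0.32 (95% interval -0.57 to -0.06, limma adjusted p = 0.116). Neither passed, although the libraries did not overlap. After median-ratio scaling the latter passed (-0.44, limma adjusted p = 0.0380).

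The beta chains did not move with the alpha chain. Csf2rb lies on chromosome 15 (78325752 to 78353847 on the plus strand) and was at 10.8, 12.6 and 7.87 FPKM in wild type and at 10.6 and 10.4 FPKM in 5xFAD EGFP. Its circRNA values were 10.2, 12.1, 12.7 and 9.81 FPKM, and in PKR KO at 11.8, 14.5, 11.2 and 11.2 FPKM. All groups overlapped wild type. Its log2 changes against wild type were 0.04 in 5xFAD EGFP (95% interval -0.33 to 0.40), 0.11 with circRNA (-0.19 to 0.42) and 0.22 in PKR KO (-0.08 to 0.53), and the limma adjusted p-values 0.920, 0.610 and 0.230. Leaving out wild type replicate 3 gave -0.13, -0.06 and 0.05 (limma adjusted p = 0.544, 0.768 and 0.768). In the same libraries the ratio of Csf2ra to Csf2rb, per length, was 1.31 ± 0.0607 in wild type (SD, n = 3) and 3.26 ± 0.0233 in 5xFAD EGFP (SD, n = 2). It was 3.18 ± 0.338 with circRNA and 3.66 ± 0.397 in PKR KO (SD, n = 4 each).

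Csf2rb2, the second beta chain gene, lies beside Csf2rb on chromosome 15 (78282507 to 78305721 on the minus strand). It was at 8.79, 9.85 and 6.23 FPKM in wild type and at 6.78 and 7.52 FPKM in 5xFAD EGFP. Under circRNA the values were 7.34, 7.61, 8.50 and 7.42 FPKM, and in PKR KO at 7.77, 8.88, 7.08 and 6.59 FPKM. Every library from a 5xFAD mouse lay within the wild type range. Its log2 changes against wild type were -0.17, -0.07 and -0.10 in 5xFAD EGFP, circRNA and PKR KO (limma adjusted p = 0.532, 0.726 and 0.563). They were -0.34, -0.24 and -0.27 when wild type replicate 3 was left out, with limma adjusted p-values of 0.0672, 0.111 and 0.05997. Csf2rb was the higher of the pair in all groups, at 1.26 ± 0.0265 times Csf2rb2 in wild type (SD, n = 3) and 1.61 ± 0.0750 times in PKR KO (SD, n = 4). The genes are near-identical in part: 12.3% of the 50-base stretches of Csf2rb and 18.4% of those of Csf2rb2 occur in the other. How reads that fit both were counted is not given in the sources used here, so the split between them is uncertain.

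Csf3r, the G-CSF receptor gene, was the second most abundant member and highest in PKR KO. It lies on chromosome 4 (126024550 to 126044440 on the plus strand). It was at 96.7, 103.2 and 70.3 FPKM in wild type and at 123.6 and 112.7 FPKM in 5xFAD EGFP. With circRNA it was at 104.0, 119.8, 112.3 and 108.8 FPKM, and in PKR KO at 152.1, 151.6, 147.2 and 137.3 FPKM. The libraries from 5xFAD mice were all above wild type, by less than 1 FPKM in the case of circRNA replicate 1, and those of PKR KO were above all others. This is a description, and against wild type only the PKR KO change passed, as given below.

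In PKR KO against wild type Csf3r rose by a log2 change of 0.72 (SE 0.13, 1.63 times, limma adjusted p = 0.000991), and by 0.55 without wild type replicate 3 (limma adjusted p = 0.00101). After quantile normalization the change was 0.20 and did not pass (limma adjusted p = 0.145). In 5xFAD EGFP it was 0.41 (limma adjusted p = 0.102) and with circRNA 0.32 (limma adjusted p = 0.0848). When wild type replicate 2 was left out these were 0.51 (limma adjusted p = 0.0482) and 0.43 (limma adjusted p = 0.0393). Without replicate 3 they were 0.24 (limma adjusted p = 0.152) and 0.15 (limma adjusted p = 0.281). In 5xFAD EGFP the change was 0.16 after quantile normalization and 0.23 with the same column sum, and neither passed (limma adjusted p = 0.425 and 0.233). After quantile normalization the circRNA change was -0.11, and with the same column sum 0.03. Among the 5xFAD groups, PKR KO was above EGFP by 0.31 (95% interval 0.00 to 0.63, limma adjusted p = 0.380). With circRNA the level was below PKR KO by a log2 change of -0.40 (95% interval -0.65 to -0.15, limma adjusted p = 0.0615). That difference passed after median-ratio scaling (-0.53, limma adjusted p = 0.0213), scaling to the same column sum (-0.46, 0.0396) and in the fit of the 2 groups alone (-0.40, 0.0272).

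Csf3r is also a neutrophil gene, and neutrophil markers (12 of 12 listed, summed) were at 6.98 to 8.70 FPKM in wild type, 5.16 to 11.1 in 5xFAD EGFP and 2.08 to 11.3 with circRNA. In PKR KO they were at 5.54, 2.63, 1.66 and 27.7 FPKM, the highest in replicate 4. Ly6g, which defines neutrophils, was at 0 in both 5xFAD EGFP libraries and at most 0.116 FPKM in any library. S100a9 was at 2.02 to 3.65 FPKM and S100a8 at 0.997 to 2.75 FPKM in the 5xFAD EGFP libraries. In PKR KO they were at 0.335 to 11.9 and 0.357 to 3.88 FPKM, and in wild type at 2.15 to 2.99 and 1.51 to 1.83 FPKM. The part of neutrophils in the Csf3r values was not tested. The part of Csf3r reads that fell in stretches shared with another gene is uncertain, since 10.7% of its 50-base stretches occur elsewhere.

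**Figure D3:**
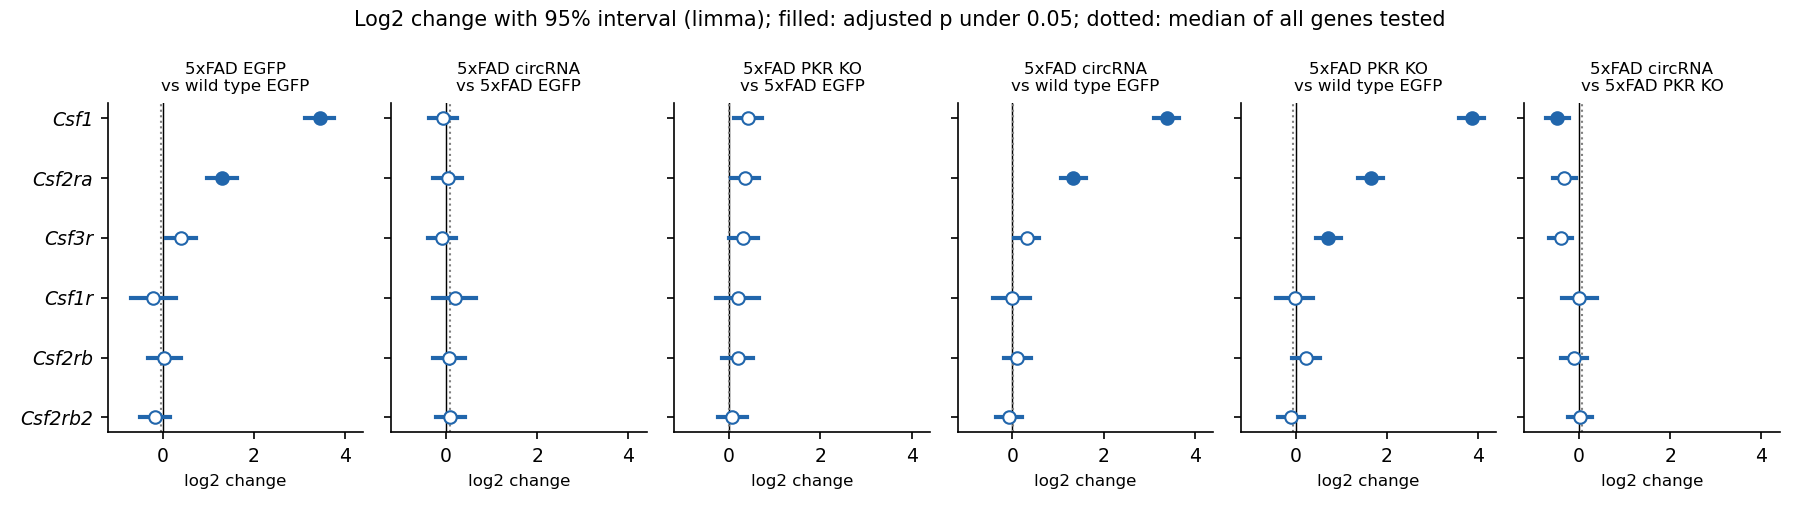
Log2 change of the 6 tested members on the log2(FPKM + 1) scale in the 6 comparisons, with 95% intervals from limma, filled where the adjusted p is under 0.05. The dotted line is the median of all genes tested. Csf1 and Csf2ra are filled in the 3 comparisons with wild type, Csf3r in PKR KO against wild type, and Csf1 alone, at -0.47, in circRNA against PKR KO.

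In PKR KO against 5xFAD EGFP none of the 6 members passed, and neither did most genes: 9 of 10817 (0.0832%), all raised, with 1404 at an unadjusted p below 0.05. For 5 of the 6 (Csf1, Csf1r, Csf2ra, Csf2rb and Csf3r) every PKR KO library was above both 5xFAD EGFP libraries, where 17.7% of all genes tested were separated in that direction. The median log2 change of the 6 was 0.25, against 0.01 over all genes. The smallest exact permutation p these 2 groups allow is 0.0667. In circRNA against PKR KO, Csf1, Csf2ra and Csf3r were separated, all lower with circRNA, where 4.44% of all genes were separated in that direction. The 2 comparisons share the PKR KO libraries. The receptor genes also varied together among replicates, as given below, so the members do not count as independent of each other.

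Other ligands and receptors of these families were mostly near the limit of detection. Of 12 listed, 11 were in the table and Il3 was not analysed here. Csf2, the GM-CSF gene, reached at most 0.0787 FPKM, Csf3, the G-CSF gene, at most 0.0132 FPKM and Il5 at most 0.0551 FPKM, and each was listed at 0 in most libraries. Flt3, Flt3l, Kit, Sdc1 and Il5ra were below 1 FPKM in every library. The ligands of the receptors encoded by Csf2ra and Csf3r were thus hardly seen in this RNA, in wild type or 5xFAD.

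Of the 3 of that list that could be tested, Il3ra rose and Kitl fell in each comparison with wild type, and Ptprz1 passed in none. Il3ra, the alpha chain of the interleukin 3 receptor, pairs with the common beta chain, as Csf2ra does, and also with the product of Csf2rb2. It rose from 1.09 ± 0.280 FPKM in wild type (SD, n = 3) to 6.06 ± 1.08 FPKM in 5xFAD EGFP (SD, n = 2; log2 change 1.76, limma adjusted p = 2.34e-06). With circRNA it was at 5.94 ± 0.289 FPKM and in PKR KO at 6.96 ± 0.755 FPKM (SD, n = 4 each; log2 changes 1.74 and 1.94). The alpha chains that bind interleukin 3 and GM-CSF were thus both higher, while the beta chains were not called. Kitl, the ligand of the related receptor KIT, fell from 6.68 ± 2.02 FPKM to 3.26 ± 0.498 FPKM in 5xFAD EGFP (log2 change -0.82, limma adjusted p = 0.0106), in step with the endothelial and mural sums given above, whose part was not tested.

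Of the genes that relay the CSF1 receptor signal (24 listed, 23 tested), 4 rose and 1 fell in 5xFAD EGFP against wild type (21.7%, against 14.0% of all genes tested). With circRNA and in PKR KO 6 rose and 2 fell in each (34.8%, against 25.8% and 37.0%). With wild type replicate 3 left out, the lowered genes became 5, 8 and 6 in the 3 comparisons and the raised stayed at 4, 6 and 6, where 18.5%, 23.8% and 35% of all genes passed in that fit. Cbl and Dab2 were among the genes newly lowered in all 3. The median of the list was -0.09 in 5xFAD EGFP and 0.05 in PKR KO, against -0.03 and -0.05 over all genes. Tyrobp, the adaptor DAP12 that carries CSF1R and TREM2 signals, rose from 208 ± 60.4 FPKM in wild type (SD, n = 3) to 649 ± 74.4 FPKM in 5xFAD EGFP (SD, n = 2; log2 change 1.68, limma adjusted p = 0.00109). Ptpn6, the phosphatase SHP-1 that restrains the receptor, rose from 35.7 to 58.8 FPKM (0.73, limma adjusted p = 0.0174), and the kinase gene Fyn from 3.79 to 6.76 FPKM (0.73, limma adjusted p = 0.00767). Pik3r1, a regulatory subunit of PI3 kinase, fell from 24.3 to 18.6 FPKM (-0.37, limma adjusted p = 0.0236). Src fell with circRNA and in PKR KO (log2 change -0.39 in each, limma adjusted p = 0.00876 and 0.00640). In circRNA against PKR KO 1 gene of the list passed (4.35%, where 6.19% of all genes did): Pik3cd, a catalytic subunit of PI3 kinase in leukocytes, was lower with circRNA, at 20.1 against 26.6 FPKM (-0.40, limma adjusted p = 0.0352).

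Of the 12 transcription factors listed as regulators of Csf1r, 3 rose and 1 fell in 5xFAD EGFP, 3 rose and 1 fell with circRNA, and 7 rose and 2 fell in PKR KO, all against wild type. These are 33.3%, 33.3% and 75.0% of the list, where 14.0%, 25.8% and 37.0% of all genes passed. In the fit that left out wild type replicate 3 the raised genes were 2, 2 and 6 and the lowered 1, 1 and 2, beside 18.5%, 23.8% and 35% of all genes. Egr1 in 5xFAD EGFP (limma adjusted p = 0.0677) and Cebpa with circRNA (0.0576) were among those that no longer passed. The list median was 0.21 in 5xFAD EGFP and 0.46 in PKR KO. Egr2, a factor induced by CSF1 signalling, rose from 1.63 ± 0.458 FPKM in wild type (SD, n = 3) to 8.10 ± 0.693 FPKM in 5xFAD EGFP (SD, n = 2; log2 change 1.80, limma adjusted p = 2.82e-05). Egr1 rose from 25.2 to 50.7 FPKM (0.97, limma adjusted p = 0.0347) and Irf8, a factor of microglial identity, from 30.1 to 44.2 FPKM (0.56, limma adjusted p = 0.0260). Maf fell from 37.2 to 23.0 FPKM (-0.65, limma adjusted p = 0.0416). Cebpa rose with circRNA, from 66.0 to 102 FPKM (0.65, limma adjusted p = 0.0174), and Sp1 fell in PKR KO (-0.27, limma adjusted p = 0.0319). Egr1 and Egr2 were lower with circRNA than in PKR KO, at 32.2 against 62.7 FPKM and at 7.24 against 11.7 FPKM (log2 changes -0.98 and -0.63, limma adjusted p = 0.0235 and 0.0200).

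Genes of the JAK-STAT path used by the GM-CSF and G-CSF receptors (18 listed, 15 tested) showed 3 raised and none lowered in 5xFAD EGFP, 4 raised and 1 lowered with circRNA, and 6 raised and 1 lowered in PKR KO, against wild type. These are 20% (3 of 15), 33.3% and 46.7% of those tested, beside 14.0%, 25.8% and 37.0% of all genes. If wild type replicate 3 was left out, Pim1 was also lowered in 5xFAD EGFP and with circRNA, and Ccnd2 no longer passed with circRNA (limma adjusted p = 0.120). Osm, an IL-6 family cytokine that STAT5 induces, rose from 3.90 to 11.3 FPKM in 5xFAD EGFP (log2 change 1.36, limma adjusted p = 0.00172). In PKR KO Osm reached 23.3 FPKM (2.33, limma adjusted p = 2.02e-06). Ccnd2, a cyclin of the G1 phase, fell in PKR KO from 2.92 to 1.58 FPKM (-0.58, limma adjusted p = 0.0122). In circRNA against PKR KO 3 genes of the list were lower and none higher (20%, where 6.19% of all genes passed and 1.91% were lower). The direction of calls in that comparison depends on the scaling, as given above. Socs3, the feedback inhibitor of the G-CSF receptor, was at 21.6 FPKM with circRNA and 60.0 FPKM in PKR KO (-1.42, limma adjusted p = 0.00167). Osm was at 9.80 against 23.3 FPKM (-1.16, limma adjusted p = 0.00522) and Mcl1, a survival factor, at 59.6 against 83.4 FPKM (-0.48, limma adjusted p = 0.0401).

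The list for shedding of CSF1 and for growth and survival (12 listed, 11 tested) had 3 genes raised and none lowered in 5xFAD EGFP, 4 raised and 1 lowered with circRNA, and 6 raised and 1 lowered in PKR KO. These are 27.3%, 45.5% and 63.6% of those tested, beside 14.0%, 25.8% and 37.0% of all genes, and without wild type replicate 3 the counts differed by Ccnd2 with circRNA alone. Adam17, a shedding protease, Furin, a convertase that processes precursor proteins, and the cyclin gene Ccnd1 passed in none of these. Those raised in 5xFAD EGFP were the survival genes Bcl2a1b, from 10.3 to 27.8 FPKM (log2 change 1.37, limma adjusted p = 0.000412), and Bcl2, from 1.21 to 2.54 FPKM (0.69, limma adjusted p = 0.000972), with the proliferation marker Mki67, from 0.821 to 1.90 FPKM (0.67, limma adjusted p = 0.00496). Mki67 was at 2.38 FPKM with circRNA and 2.43 FPKM in PKR KO. Myc rose in PKR KO from 7.63 to 13.8 FPKM (0.80, limma adjusted p = 0.00546). In circRNA against PKR KO, Bcl2 was higher with circRNA (2.82 against 2.11 FPKM, log2 change 0.30, limma adjusted p = 0.0455) and Mcl1 lower, as given above. None of the 5 lists had a gene that passed in circRNA or in PKR KO against 5xFAD EGFP.

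**Figure D4:**
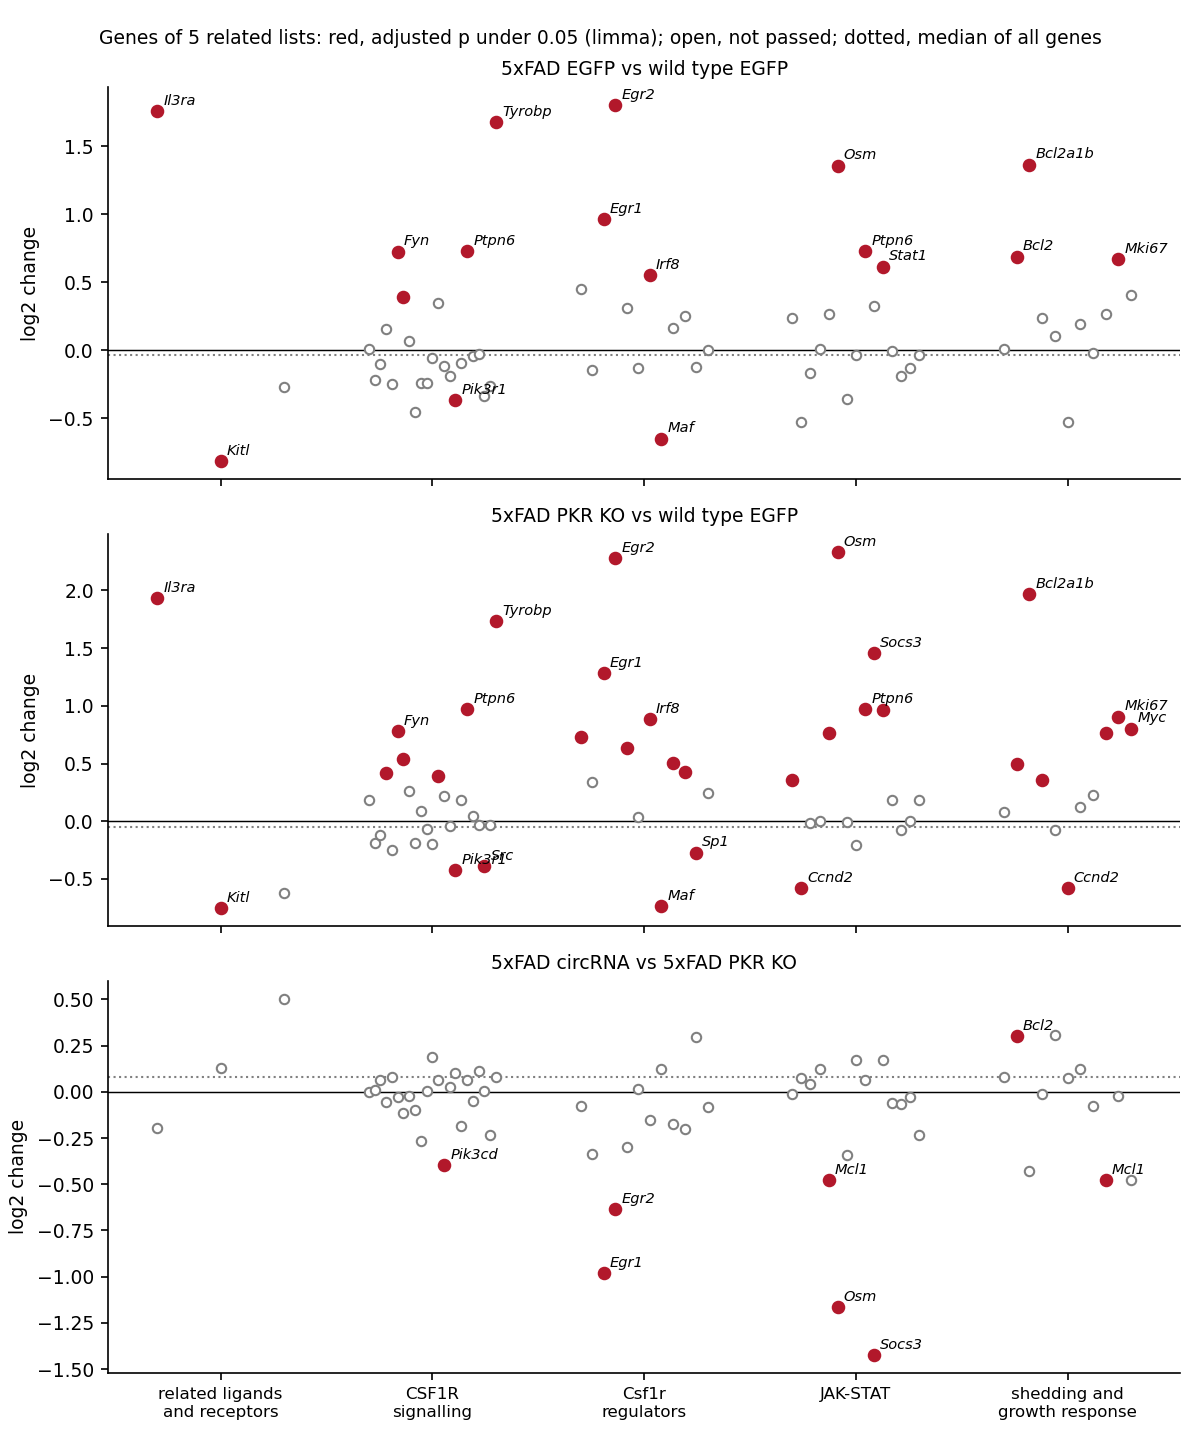
Log2 change of the tested genes of the 5 related lists in 5xFAD EGFP against wild type, PKR KO against wild type, and circRNA against PKR KO. Filled red points have a limma adjusted p under 0.05, open points did not pass, and the dotted line is the median of all genes; Il3ra, Tyrobp, Egr2, Osm and Bcl2a1b are the highest of their lists in the upper 2 panels.

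The genes whose level across the 13 libraries was most like that of a member are given as a description, with Pearson's r of log2(FPKM + 1). The libraries share groups, so these values largely follow the groups, and the genes are the highest of 10816 others. For Csf1 they were Cacna1a (0.995), Mamdc2 (0.995) and Rftn1 (0.993), which went from 2.04, 0.701 and 3.19 FPKM in wild type to 12.3, 26.2 and 10.8 FPKM in 5xFAD EGFP. For Csf2ra they were Plaur (0.989), Got1 (0.986) and Mapkapk3 (0.985), and for Csf3r Pnpla7 (0.973), Mef2d (0.972) and Rab20 (0.960). For Csf1r they were Snx18 (0.978), the lysosomal protease gene Lgmn (0.970) and the kinase gene Lyn (0.959). For Csf2rb they were Fmnl3 (0.953), Pik3ap1 (0.943) and Arhgap30 (0.938), and for Csf2rb2 Tmem268 (0.904), Rapsn (0.888) and Slc9a8 (0.877).

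With the group means removed, so that only differences among replicates count, the members fell apart differently. Csf1 and Csf2ra, at r = 0.965 over all libraries, were at -0.078. Csf2rb and Csf2rb2 went from 0.704 to 0.913, and Csf1r and Csf3r from 0.301 to 0.837. All 5 receptor genes were at 0.688 or above with each other by this measure, and Csf1 was between -0.404 and 0.037 with each of them. Depth and the microglial share of a library are common to all these points. Wild type replicate 3, which stood apart, was the lowest of its group for all 5 receptor genes and the highest for Csf1. The r values were not computed without it.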

How the data were processed

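The authors deposited 1 table of FPKM values, 1 column a library. Per the submitters' processing notes, HISAT2 2.1.0, Bowtie2 2.3.5, featureCounts 1.5.1 and build mm10 were used; their roles, the annotation and the strand setting are not given in the sources used here. Per the labels' protocols, RNA was extracted with TRIzol, depleted with RiboMinus, made into TruSeq stranded libraries and sequenced on a NovaSeq. FPKM is relative to each library's total, so a few abundant genes that change can move others.

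From these values, log2(FPKM + 1) was fitted with limma 3.58.1 (R 4.3.3) to 4 group means over all 13 libraries (eBayes with trend, 9 residual degrees of freedom), for the 10817 genes whose mean reached 1 FPKM. P-values were adjusted by Benjamini-Hochberg within each of 6 comparisons, with a threshold of 0.05. Adding 1 understates changes of low genes. Exact two-sided permutation tests over libraries were run for each member. Fragments were recovered with GENCODE M21 exon lengths (19418 genes): 90.7% of low values were whole within 0.02 fragment, against 4% by chance. Counting errors cover counting only.

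In simulated data for 5xFAD EGFP against wild type (10817 genes, 200 changed), 39.5%, 84.5% and 98.5% of changes of 0.5, 1 and 2 log2 units were recovered. Of the genes called, 2.5%, 6.1% and 4.8% were false. The simulated noise was independent between genes, with the same SD in all groups. It held no shift shared by the genes of a library, so recovery in the real data can differ. Named genes are the members, up to 3 raised and 3 lowered of each list in each comparison, and the 3 genes most like each member. Members and lists were chosen with earlier results of these data known. The labels do not say whether replicate numbers pair the libraries, so the fit did not pair them. Alternatives were another pseudocount, no filter, 3 scalings, 2 groups alone, a replicate block, voom on recovered fragments, and leaving out each library. Those of Il34 without the filter were added after the data were seen.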

Additional observations from a re-analysis of the deposited data

Results flagged for a closer look

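The effect of circRNA on Csf1 and that of PKR KO, both against 5xFAD EGFP, differed by a log2 change of -0.47 (limma adjusted p = 0.0350): Csf1 was at a log2 change of -0.06 with circRNA and 0.41 in PKR KO. Since the 5xFAD EGFP libraries cancel, this is the direct comparison of the 4 circRNA with the 4 PKR KO libraries, which did not overlap. No library of the 14 sets of 4 looked at (7 members in the circRNA and PKR KO groups) stood apart from its group by Dixon's criterion.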

How the results depend on the processing

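The calls of Csf1 and Csf2ra against wild type held under all 8 alternatives and with each library left out in turn, at log2 changes of 3.29 to 3.66, 3.12 to 3.60 and 3.65 to 4.08 for Csf1 (5xFAD EGFP, circRNA, PKR KO; other alternatives) and 1.13 to 1.36, 1.06 to 1.40 and 1.43 to 1.75 for Csf2ra. Over all members and comparisons, 280 values of the alternatives kept direction and side of the threshold, 25 changed sign, 10 newly passed and 3 no longer passed; leaving out a library gave 233, 25, 3 and 12. Each value that changed sign belonged to a member that had not passed, and the cause was not tested. Leaving out a 5xFAD EGFP library leaves 1, which is assumed to vary like the other groups. Il34 rests on at most 215 fragments a library.

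The number of genes that passed moved with the scaling, the libraries and the groups fitted. In 5xFAD EGFP against wild type it was 1514, and 3709 with the same column sum, 509 with the 2 groups alone and 566 to 1998 with a library left out (566 and 666 without 5xFAD EGFP replicates 2 and 1). With circRNA against wild type it was 2796, and 5676 and 1725 under the same settings; in PKR KO against wild type 3997, and 6595 with the same column sum. That scaling moved the median of all genes to -0.173, -0.204 and -0.236. The share of calls that were raised was 54.6%, 68.8% and 47.5% as deposited, and 19.1%, 17.5% and 17.8% with it; median-ratio scaling gave 65.6% in PKR KO and quantile normalization 51.2% with circRNA. In PKR KO against 5xFAD EGFP, 9 genes became 0 with pseudocount 0.1, 0 with no filter, 0 with quantile normalization, 0 with the same column sum, 0 with voom, 46 with median-ratio scaling, 577 with the 2 groups alone and 0 to 2 with a library left out. In circRNA against PKR KO, 670 genes became 147 to 506 with a library left out. Voom on recovered fragments called 1429, 2663 and 3986 genes against wild type and 776 in circRNA against PKR KO. The 1 member that passed there became 0 with no filter, 3 with median-ratio scaling, 2 with the same column sum, 2 with the 2 groups alone and 0 to 1 with a library left out.

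The labels do not say whether replicate numbers pair the libraries. Correlations of deviations from group means cannot decide it, since pairs are few and deviations within a group depend on each other. With 4 pairs of the same number it was 0.036 to 0.553 between circRNA and PKR KO (mean 0.19, against -0.06 for different numbers). With 3 pairs it was -0.422 to 0.69 for circRNA and -0.176 to 0.577 for PKR KO with wild type. Between PKR KO and 5xFAD EGFP the mean was 0.33 over 2 pairs, against -0.11. The mean was higher for the same number in every comparison. With a replicate block, 1306, 2678 and 3870 genes passed against wild type, 0 and 22 in circRNA and PKR KO against 5xFAD EGFP, and 448 in circRNA against PKR KO, where 0 members passed (Csf1 -0.47, limma adjusted p = 0.0685). The block gave -0.022 for Csf2rb in 5xFAD EGFP against wild type, 0.032 and 0.026 for Csf1r with circRNA and in PKR KO, and for Il34 -0.0080 and -0.0054 in circRNA and PKR KO against 5xFAD EGFP.

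Signs that changed in 5xFAD EGFP against wild type were those of Csf2rb, -0.12 with the same column sum and -0.13 to 0.17 with a library left out. In circRNA against 5xFAD EGFP, quantile normalization gave -0.033 for Csf1r, -0.078 for Csf2ra and -0.021 for Csf2rb, median-ratio scaling -0.047 for Csf2ra and -0.0052 for Csf2rb, and the same column sum -0.075 for Csf2ra, -0.032 for Csf2rb, -0.0075 for Csf2rb2 and -0.0054 for Il34. With a library left out, Il34 ran from -0.084 to 0.16 and Csf2ra from -0.012 to 0.063. In PKR KO against 5xFAD EGFP, Il34 ran from -0.081 to 0.16 and Csf2rb2 from -0.0017 to 0.13. In circRNA against wild type, Csf2rb was -0.15 with the same column sum and Csf3r -0.11 with quantile normalization; with a library left out Csf1r ran from -0.24 to 0.099, Csf2rb from -0.058 to 0.25 and Csf2rb2 from -0.24 to 0.049. In PKR KO against wild type, Csf1r was 0.085 with median-ratio scaling and ran from -0.25 to 0.093, and Csf2rb2 from -0.27 to 0.021. In circRNA against PKR KO, Csf1r was -0.10, -0.12 and -0.051 and Csf2rb2 -0.027, -0.087 and -0.024 (quantile, median-ratio, same column sum), and Il34 was 0.059 with pseudocount 0.1; with a library left out Csf1r ran from -0.094 to 0.095, Il34 from -0.11 to 0.098 and Csf2rb2 from -0.029 to 0.098.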
